A study of Homo sapiens with 3 samples.

Results

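The promoter contacts of 10 genes of the Slit–Robo and semaphorin guidance systems were described in hESC-CMs, cardiomyocytes grown from human embryonic stem cells. The genes were *SLIT2*, *SLIT3*, *ROBO1*, *ROBO2*, *SEMA3A*, *SEMA3C*, *SEMA3D*, *NRP1*, *NRP2* and *PLXND1*. They were chosen by name, with earlier results of these data known. A promoter fragment was a HindIII restriction fragment listed as captured that holds an annotated transcript start of 1 of these genes, and every contact of such a fragment was taken. The rule gave 14 promoter fragments of 19075 in the series and 325 contacts of 200587, counted over the union of 3 replicates. The contacts joined the 14 promoter fragments to 281 distinct partner fragments, and both ends of all 293 fragments involved carried a HindIII site.

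The study mapped the contacts of promoters across the genome by promoter capture Hi-C (PCHi-C), in which cross-linked chromatin is cut and ligated and the ligation products that carry a promoter are captured and sequenced. The samples were 3 biological replicates of 1 untreated condition. The cells came from the embryonic stem cell line WA09 (H9) at passage 32, were driven to cardiomyocytes in a commercial differentiation medium, were enriched in lactate medium lacking glucose and were fixed after a purity check on *MYH7* and *TNNT2*. The submitters accepted a purity of 80-90% or more, so other cell types may make up the remainder, and all cells derive from 1 line. Replicates 1, 2 and 3 listed 112473, 109731 and 110740 contacts, of which 207, 212 and 206 belonged to the 10 genes. Each contact carries a CHiCAGO score, which rises with the evidence that a pair of fragments was ligated more often than their distance and capture predict. No contact with a score under 5 is listed, so a contact missing from a replicate scored below 5 there and is not known to be absent. Read counts per contact are not listed, so the depth behind a single score is unknown.

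Slit proteins are secreted ligands of the Robo receptors, and class 3 semaphorins are secreted ligands that act through receptors made of a neuropilin and a plexin. Both systems steer growing axons and are reused in the developing heart and vessels, where they take part in outflow tract septation, in the patterning of the great veins and in the guidance of sympathetic nerves. Genes of this kind often sit beside long intervals with few protein-coding genes, and contacts across such intervals link promoters to distant chromatin.

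A larger share of the contacts of the 10 genes than of the series recurred in all 3 replicates, but not for every gene. Of the 325 contacts, 117 were called in all 3 replicates (36.0%, 95% Wilson interval 31.0–41.4), where 24.0% of all contacts in the series were. Another 66 recurred in 2 replicates, and 142 came from 1 replicate alone. Counted as partner fragments, none of *ROBO2* or *SEMA3A* was called in all 3 replicates. For *ROBO1* 1 of 21 was and for *PLXND1* 3 of 16 were, while the other genes had shares from 32.1% (*NRP2*) to 61.1% (*SEMA3C*). At a mean score of at least 10, 45 contacts (13.8%) were called in all 3 replicates, against 7.90% of all contacts. Contacts of 1 promoter fragment share that fragment and are not independent, and the intervals cover counting error alone. A contact called in all 3 replicates was present for 11 of the 14 promoter fragments (78.6%), against 51.9% of all promoter fragments. Between any pair of replicates, 49.8–50.2% of the contacts listed by at least 1 of the pair were common to both, where 36.9–37.5% over the series were. The Spearman correlation of the shared scores was 0.64–0.674, which describes contacts within libraries and carries no test.

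The contacts were long and mostly ran upstream of the promoter fragments. Their median distance, between fragment midpoints, was 1147 kb (quartiles 790 and 1463, n = 323 on the same chromosome), against 691 kb over all promoter fragments (quartiles 307 and 2053). Among contacts called in all 3 replicates the median was 954 kb against 384 kb, and 47.0% spanned more than 1 Mb against 19.4%. Of the 323 same-chromosome contacts, 279 lay upstream of their promoter fragment by gene strand (86.4%, interval 82.2–89.7). The share was 49.0% over promoter fragments whose coding genes share 1 strand. Upstream of a promoter fragment inside a gene can still be within that gene, as for some contacts of *SLIT3*. Without *NRP2*, the gene with the most contacts, 79.5% lay upstream. All same-chromosome contacts of *SLIT2* (49), *SEMA3A* (3), *NRP1* (34) and *NRP2* (108) were upstream, whereas for *SLIT3* 26 of 49, for *PLXND1* 10 of 16 and for *ROBO2* 2 of 7 were. The plot of contact positions shows this asymmetry.

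**Figure D1:**
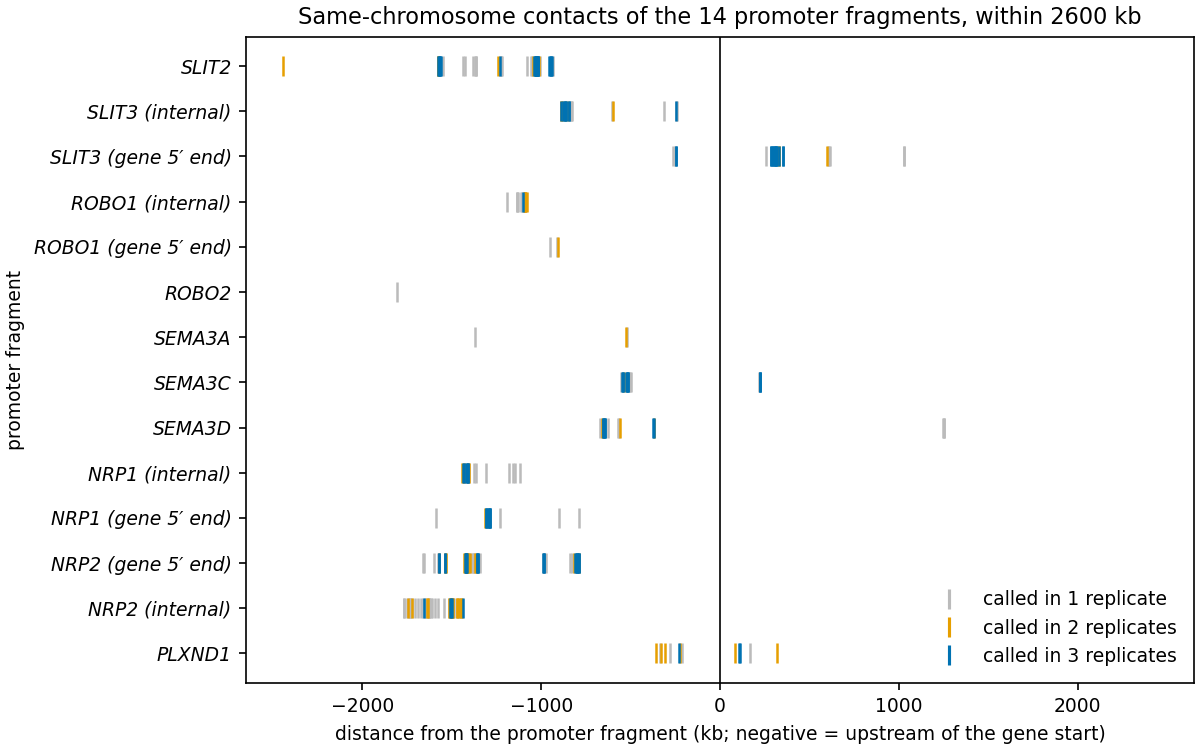
Positions of the same-chromosome contacts of the 14 promoter fragments, in kb from the promoter fragment, with negative values upstream in the direction of the gene. Each mark is 1 partner fragment coloured by the number of replicates that called it; 12 contacts beyond 2600 kb are not drawn. The marks called in all 3 replicates (blue) form short clusters, most of them to the left of 0.

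The partner fragments were seldom promoters and often lay outside genes. Of 326 promoter–partner pairs (1 contact joins both *SLIT3* promoter fragments and counts from each end), 11 had a partner that was itself a captured promoter fragment (3.37%, interval 1.89–5.94), against 17.5% over the series. No contact joined promoter fragments of different genes among the 10. Of the 281 partner fragments, 131 overlapped no annotated gene (46.6%, interval 40.9–52.5), against 28.2% of all partner fragments. *NRP2* contributed most to that share, and without it 37.0% lay outside genes. Only 3 pairs joined different chromosomes, and each of them was called in 1 replicate.

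The number of partner fragments differed widely among the genes. *NRP2* was contacted by 55, 56 and 52 fragments in replicates 1, 2 and 3 (54.3 ± 2.08, mean ± SD, n = 3). *SLIT2* had 32, 35 and 40 (35.7 ± 4.04) and *SLIT3* 31, 32 and 32 (31.7 ± 0.577). At the other end *SEMA3A* had 2, 1 and 1 (1.33 ± 0.577). Between these lay *NRP1* with 15.3 ± 1.15, *SEMA3C* with 13.7 ± 0.577, *SEMA3D* with 12.0 ± 1.0, *ROBO1* with 9.67 ± 2.08, *PLXND1* with 9.33 ± 2.52 and *ROBO2* with 2.67 ± 1.15. In this order the replicate values of *NRP2* and *SLIT2*, of *SLIT3* and *NRP1*, and of *PLXND1* and *ROBO2* did not overlap, and those of every other neighbouring pair overlapped or touched. Over the union of replicates, the median protein-coding gene with a call had 7 partner fragments (n = 15517). *NRP2*, *SLIT2* and *SLIT3*, with 81, 49 and 42, had more than 99.1%, 97.0% and 95.7% of those genes, and *SEMA3A*, with 3, had more than 18.3%. With starts of protein-coding transcripts alone, *NRP2* fell to 59, *SLIT3* to 27 and *ROBO1* from 21 to 4. The promoter fragments differ in length, from 1694 bp for *ROBO2*, 1984 bp for *SEMA3A* and 2551 bp for *SEMA3D* to 18333 bp for *PLXND1*, and the part of length in these counts was not tested. For no gene did the fragments hold all annotated transcript starts. They held 1 of 17 for *PLXND1*, 2 of 7 for *SEMA3A*, 2 of 4 for *SEMA3D* and 1 of 12 in each *ROBO1* fragment. The counts therefore cover only starts in captured fragments with a call.

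**Figure D2:**
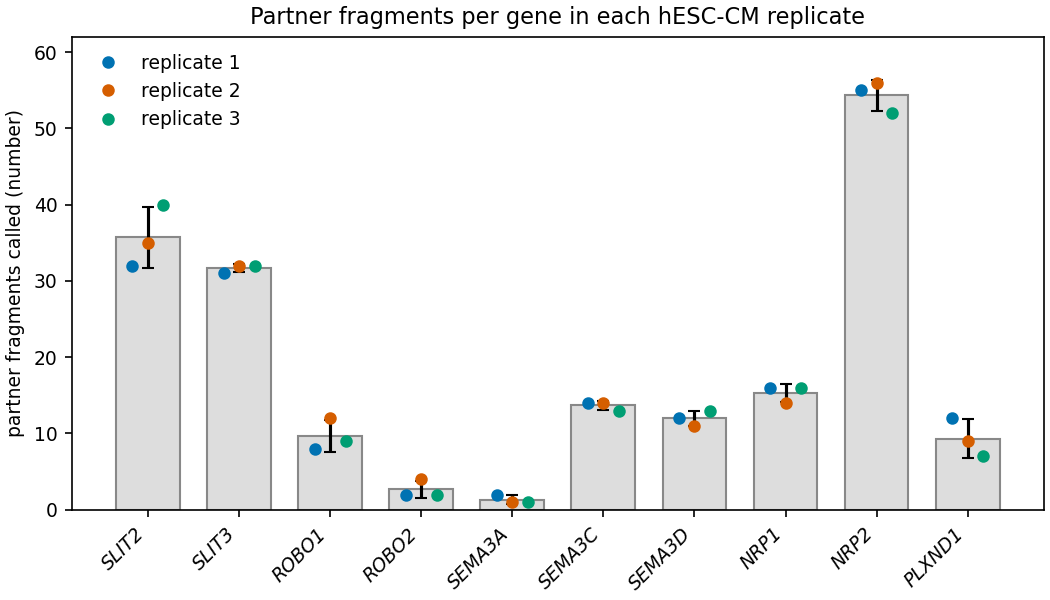
Number of partner fragments called for each gene in each of 3 hESC-CM replicates (coloured points), with the mean (bar) and SD (error bar). *NRP2* lies at 52–56 and the *SLIT* genes at 31–40, while *ROBO2* and *SEMA3A* stay at 4 or fewer.

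Paralogues were compared within replicates for 6 pairs, with an exact two-sided sign-flip permutation test whose smallest possible p with 3 replicates is 0.25. *NRP1* minus *NRP2* was -39, -42 and -36 partner fragments in replicates 1, 2 and 3, and the values of the genes did not overlap (exact p = 0.25, adjusted p = 0.3). *ROBO1* exceeded *ROBO2* by 6, 8 and 7, and *SEMA3C* and *SEMA3D* each exceeded *SEMA3A* in all 3 replicates without overlap (exact p = 0.25 and adjusted p = 0.3 for each). *SLIT2* exceeded *SLIT3* by 1, 3 and 8, with values that met at 32 (exact p = 0.25, adjusted p = 0.3), and without replicate 3 the mean excess was 2.0 in place of 4.0. With starts of protein-coding transcripts alone, which leaves out the *SLIT3* promoter fragment further inside the gene, the mean excess of *SLIT2* was 15.0. *SEMA3C* and *SEMA3D* differed by 2, 3 and 0 and overlapped (exact p = 0.5, adjusted p = 0.5), with a mean of 1.0 without replicate 2 in place of 1.67. No pair can pass a threshold of 0.05 in this design. The *ROBO1* excess rests on a promoter fragment of a transcript subject to nonsense-mediated decay, and with starts of protein-coding transcripts alone *ROBO1* had on average 1.0 fewer partner fragments than *ROBO2*.

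*SLIT2*, a secreted ligand of the Robo receptors, is annotated at chr4:20253528-20622184 (GRCh37, plus strand), and 1 promoter fragment of 6723 bp at chr4:20252473-20259195 holds 6 of its 12 annotated transcript starts. Its 49 partner fragments were all upstream, 26 of them called in all 3 replicates, and those 26 lay in the interval between *SLIT2* and *LCORL*. The one partner that is a promoter fragment, that of *DCAF16* and *NCAPG* beyond *LCORL* at 2444 kb (chr4:17810109-17813638), scored 7.68 and 10.48 in replicates 2 and 3 and is not listed in replicate 1. The farthest was a run of 6 fragments 1559–1580 kb away (chr4:18676217-18696740), inside the long non-coding RNA gene ENSG00000286046. Its mean score was 20.6, 19.7 and 20.1 in replicates 1, 2 and 3. A single fragment outside genes followed at 1233 kb (chr4:19022097-19022828), with 6.61, 7.11 and 5.79. The nearer runs lay inside another long non-coding RNA gene, *LINC02438*, with 14 fragments at 1016–1040 kb and 5 at 938–955 kb. The run of 14 scored 15.4, 13.0 and 13.1 on average and the run of 5 scored 8.2, 9.17 and 9.71, so the most distant run carried the highest mean in every replicate.

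The highest-scoring partner fragment of *SLIT2*, and of all 10 genes, was chr4:18689058-18690527 in an intron of ENSG00000286046, with scores of 40.91, 25.88 and 32.28 (33.0 ± 7.54, SD, n = 3). The adjoining fragment scored 27.12, 32.11 and 29.54, and the best fragment of the middle run, chr4:19228704-19229340, scored 33.38, 25.51 and 25.20. These 3 fragments do not separate beyond their replicate spread. Of the 26 partner fragments called in all 3 replicates, 1 overlapped an exon, that of *LINC02438*. The other promoter fragment with the most similar partners was that of *PACRGL*, 440 kb from the *SLIT2* fragment, with 8 shared partner fragments (16.3% of those of *SLIT2* and 61.5% of the 13 of *PACRGL*). Of those 8, 1 was called in all 3 replicates for both. A window of 160 bases within the top partner fragment is shown with a match to the GATA motif AGATAAG in capitals, at chr4:18689367-18689373 on the plus strand (window chr4:18689291-18689450, GRCh37).
*SLIT2* partner window: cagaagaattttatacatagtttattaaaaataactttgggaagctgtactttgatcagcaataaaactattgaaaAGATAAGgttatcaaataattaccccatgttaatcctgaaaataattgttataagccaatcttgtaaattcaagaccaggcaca

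The sequence at the annotated 5′ end of *SLIT2*, which lies within the promoter fragment, is rich in CG dinucleotides. The 300 bases around this start (250 before and 50 after) hold 36 CG pairs, against a median of 18 over 20152 protein-coding promoters. Which part of the promoter fragment makes the contacts was not tested. The 250 bases before the start are printed on the gene's strand with CG in capitals (chr4:20253278-20253527, GRCh37).
*SLIT2* promoter: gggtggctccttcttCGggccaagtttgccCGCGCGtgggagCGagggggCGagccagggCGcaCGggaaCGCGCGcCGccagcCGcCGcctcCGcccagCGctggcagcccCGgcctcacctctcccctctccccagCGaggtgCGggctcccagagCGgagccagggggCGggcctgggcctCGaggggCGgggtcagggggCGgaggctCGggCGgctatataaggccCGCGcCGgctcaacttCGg

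**Figure D3:**
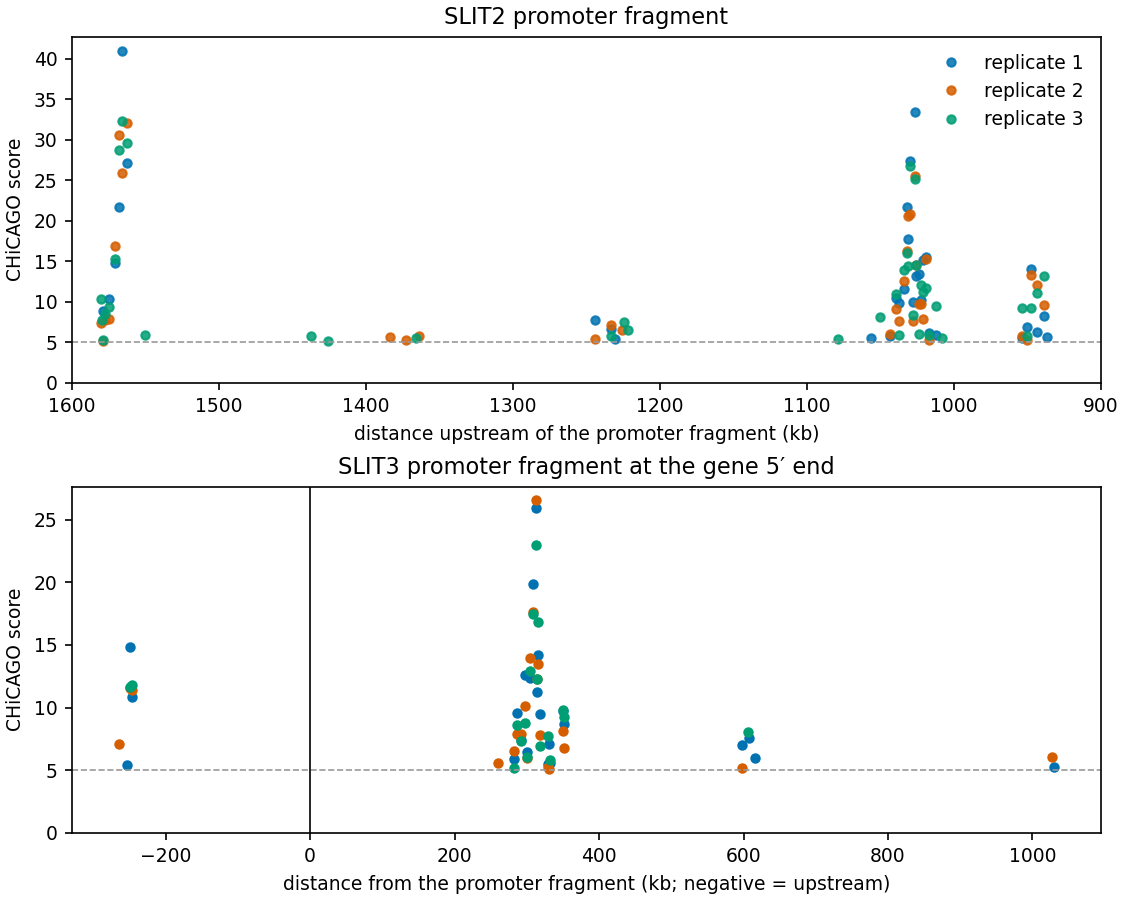
CHiCAGO scores of the partner fragments of *SLIT2* (upper panel, by distance upstream in kb, 900–1600 kb) and of the *SLIT3* fragment at the gene's 5′ end (lower panel, negative is upstream), 1 point per fragment and replicate; the dashed line is the lowest listed score, 5. Scores peak near 1566 and 1027 kb upstream of *SLIT2* and near 312 kb downstream of the *SLIT3* fragment, inside the gene, in all 3 replicates.

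*SLIT3*, the paralogous ligand, lies at chr5:168088745-168728143 on the minus strand and made contacts of another kind, since 26 of its pairs had a partner inside *SLIT3* itself. The promoter fragment at the gene's 5′ end (chr5:168721990-168729789) contacted a run of 14 fragments called in all 3 replicates 281–354 kb downstream, within the gene body (chr5:168372230-168444744). The run scored 11.3, 10.7 and 10.9 on average in the 3 replicates. Its peak was chr5:168412934-168414787, with 25.94, 26.54 and 22.97 (25.2 ± 1.91, SD, n = 3), followed by the adjoining fragment with 19.83, 17.65 and 17.43. Apart from 2 fragments that hold non-coding genes, the partner fragments of *SLIT3* called in all 3 replicates overlapped no exon.

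Both partner promoters of the whole gene set that were called in all 3 replicates belonged to *SLIT3*. The fragment that holds the start of the non-coding gene ENSG00000248965 scored 12.36, 13.95 and 12.89, and the fragment with the starts of *SLIT3-AS1* and ENSG00000279752 scored 9.54, 7.89 and 8.62. Both lie inside *SLIT3*. The promoter fragment further inside the gene (chr5:168121961-168134166), which holds a start of a *SLIT3* transcript without a defined coding sequence and of *SLIT3-AS2*, contacted the 5′ end fragment at 7.02 and 5.21 in replicates 1 and 2, and the pair is not listed in replicate 3. It also reached past the 5′ end to 8 fragments 844–887 kb upstream (chr5:168972445-169015365), in the interval between *SLIT3* and *SPDL1* and in the first part of *SPDL1*, with run means of 9.75, 10.2 and 12.1. The 5′ end fragment contacted 2 fragments of the same interval, 247–250 kb upstream, at 12.8, 11.5 and 11.7 on average. Of 42 partner fragments, 7 were shared by both *SLIT3* promoter fragments. The most similar other promoter fragment held the small nuclear RNA gene *RNU6-477P*, with 20 shared partner fragments (47.6% of those of *SLIT3* and 87.0% of its own 23), and *SPDL1*, a gene of chromosome segregation, followed with 15. Of those 20 and 15, 9 and 5 were called in all 3 replicates for both.

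The end of the top *SLIT3* partner fragment is shown because it holds a match to the core CTCF motif, in capitals at chr5:168414756-168414767 on the plus strand (window chr5:168414628-168414787, GRCh37). CTCF is the architectural protein found at many loop anchors, and a match of letters is not a binding site.
*SLIT3* partner window: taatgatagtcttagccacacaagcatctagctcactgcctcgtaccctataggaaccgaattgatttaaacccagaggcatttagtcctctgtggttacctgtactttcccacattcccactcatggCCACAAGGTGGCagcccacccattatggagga

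*SEMA3C*, a semaphorin ligand known from outflow tract septation, lies at chr7:80371854-80551675 on the minus strand, and its fragment chr7:80548006-80553154 holds 6 of its 9 transcript starts. It had 14, 14 and 13 partner fragments in the 3 replicates, and 11 of the 18 in the union were called in all 3, the highest share among the genes (61.1%, interval 38.6–79.7). A run of 8 lay 510–552 kb upstream (chr7:81060133-81102518), in the interval between *SEMA3C* and *HGF*, the gene of hepatocyte growth factor, with mean scores of 8.31, 8.58 and 9.57. The other 3 lay 220–223 kb downstream, between *CD36* and *SEMA3C*, at 8.86, 7.8 and 7.15. The top fragment, chr7:81092286-81093505, overlaps the pseudogene *EIF4EP4* and scored 12.66, 11.35 and 18.03 (14.0 ± 3.54, SD, n = 3). The window below shows the GATA motif in that fragment in capitals, at chr7:81093414-81093420 on the plus strand (window chr7:81093338-81093497, GRCh37).
*SEMA3C* partner window: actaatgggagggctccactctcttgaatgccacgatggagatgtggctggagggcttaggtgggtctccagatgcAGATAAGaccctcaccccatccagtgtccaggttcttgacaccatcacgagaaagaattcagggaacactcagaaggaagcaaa

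The *SEMA3C* promoter at the annotated 5′ end of the gene had the fewest CG pairs of the 10 genes, 2 in 300 bases. The other *SEMA3C* starts were not counted. Its 250 bases before the start are printed on the minus strand (chr7:80551676-80551925, GRCh37).
*SEMA3C* promoter: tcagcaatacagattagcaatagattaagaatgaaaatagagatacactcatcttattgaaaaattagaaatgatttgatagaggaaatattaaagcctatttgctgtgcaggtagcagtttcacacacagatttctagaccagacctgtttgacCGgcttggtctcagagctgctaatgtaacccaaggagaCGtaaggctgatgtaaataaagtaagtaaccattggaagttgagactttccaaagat

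*SEMA3D*, a semaphorin ligand known from pulmonary vein patterning, lies at chr7:84624869-84816372 on the minus strand, and all of its 18 partner fragments lay outside genes. It had 12, 11 and 13 partner fragments, and 7 were called in all 3 replicates. A run of 5 lay 643–658 kb upstream (chr7:85458740-85474041) and a pair 370–375 kb upstream, both in the interval between *SEMA3D* and *GRM3*, which encodes a metabotropic glutamate receptor. The top fragment, chr7:85458740-85459630, scored 7.21, 9.93 and 13.04, and the adjoining one 11.15, 8.97 and 9.65, so their order was not the same in the 3 replicates. All 7 fragments were also partners of another promoter fragment, and the most similar one was that of *AC006322.1*, at chr7:83545597-83552907 on the far side of *SEMA3A*, with 11 shared partner fragments (61.1% of those of *SEMA3D* and 22.9% of its own 48). Of those 11, 3 were called in all 3 replicates for both.

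*SEMA3A*, a repulsive ligand known for the pattern of sympathetic innervation of the heart, had the fewest contacts, and none was called in all 3 replicates. Its fragment of 1984 bp at chr7:84121669-84123652 holds 2 of the 7 annotated transcript starts of the gene. The other starts were in no fragment listed as a captured promoter with a call. The fragment was linked to 3 partner fragments. The partner chr7:84644759-84649782, inside *SEMA3D* and 525 kb upstream, was listed at 7.67 and 5.43 in replicates 2 and 3, and its neighbour, also in *SEMA3D*, at 5.71 in replicate 1 alone. The last, 1369 kb upstream, scored 7.07 in replicate 1. All 3 were also partners of the *AC006322.1* fragment (6.25% of its 48). Without replicate 1, a single partner fragment of *SEMA3A* remained. Its promoter, with 7 CG pairs in 300 bases, is printed on the minus strand (chr7:84122041-84122290, GRCh37).
*SEMA3A* promoter: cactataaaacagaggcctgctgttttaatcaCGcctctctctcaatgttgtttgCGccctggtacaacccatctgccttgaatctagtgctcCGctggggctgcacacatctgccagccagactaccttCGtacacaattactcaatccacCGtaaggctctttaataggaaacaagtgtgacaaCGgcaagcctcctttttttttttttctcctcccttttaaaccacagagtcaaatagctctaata

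Among the receptors, *ROBO1* (chr3:78646389-79817148, minus strand) had 8, 12 and 9 partner fragments and *ROBO2* (chr3:75955846-77699115, plus strand) had 2, 4 and 2. Both are transmembrane receptors of the Slits, in neighbouring positions on chromosome 3. Of 21 partner fragments of *ROBO1*, 1 was called in all 3 replicates, chr3:80738507-80741278 in the interval between *ROBO1* and *GBE1*, at 6.22, 5.17 and 7.42 from the fragment of the nonsense-mediated decay transcript, 1105 kb away. It was accompanied by 5 fragments between 1078 and 1095 kb that were each called in 2 replicates. The fragment of the nonsense-mediated decay transcript also holds a start of *AC117479.1*, so its contacts cannot be assigned to *ROBO1* alone. The *ROBO1* fragment at the gene's 5′ end (chr3:79810936-79823781) was listed with 2, 0 and 3 partners. The farthest same-chromosome contact of *ROBO1*, 78036.5 kb downstream, was called in replicate 3 alone, at 5.62. Leaving out replicate 2 took *ROBO1* from 21 partner fragments to 13 and *ROBO2* from 8 to 4.

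No contact of *ROBO2* was called in more than 1 replicate, and their median distance was 3830 kb, the longest among the genes. Of its 8 partner fragments, 3 lay inside *ROBO1*, with scores of 6.99, 6.73 and 6.79 in replicates 1, 2 and 3, the first and the second in adjoining fragments 2741 and 2742 kb downstream. The fragment used, chr3:75954690-75956383, holds 5 of 18 annotated transcript starts of *ROBO2*, and its other starts were in no fragment listed as a captured promoter with a call. The promoter printed on the plus strand, with 15 CG pairs in 300 bases, is the one at the annotated start of the gene (chr3:75955596-75955845, GRCh37).
*ROBO2* promoter: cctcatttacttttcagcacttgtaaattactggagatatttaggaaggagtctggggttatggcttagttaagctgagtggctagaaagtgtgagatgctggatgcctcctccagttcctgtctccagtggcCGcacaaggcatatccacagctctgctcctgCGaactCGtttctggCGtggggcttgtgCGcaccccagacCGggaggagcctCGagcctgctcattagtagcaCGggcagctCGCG

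The neuropilin genes, which encode co-receptors of the semaphorins and of vascular endothelial growth factor, each contacted the locus of a partitioning-defective polarity gene. *NRP1* (chr10:33466420-33625190, minus strand) is followed upstream by *PARD3*, and *NRP2* (chr2:206546714-206662857, plus strand) by *PARD3B*, the paralogue of *PARD3*. All 9 partner fragments of *NRP1* called in all 3 replicates lay in introns of *PARD3*. Its fragment at the gene's 5′ end (chr10:33621192-33629950) contacted 8 of them at 1284–1311 kb, with run means of 8.75, 9.91 and 9.44. Its second fragment (chr10:33499922-33506059) contacted 6 of them at 1407–1438 kb, with 8.8, 8.54 and 8.91. The fragments had 5 of these 9 partners in common. Their runs overlapped within *PARD3*, with 26.9 kb for the 5′ end fragment (chr10:34909654-34936514) and 31.6 kb for the second (chr10:34909654-34941285). The second fragment also holds a start of ENSG00000238258, so its contacts cannot be assigned to *NRP1* alone.

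The top *NRP1* partner fragment, chr10:34921624-34926208, scored 14.13, 18.25 and 18.18 (16.9 ± 2.36, SD, n = 3). The most similar other promoter fragment, chr10:33608426-33616026, is captured but holds no annotated transcript start and lies within *NRP1*, 13.3 kb from the 5′ end fragment. It shared 19 partner fragments (76.0% of those of *NRP1* and 70.4% of its own 27), of which 8 were called in all 3 replicates for both. The fragment that holds the start of *PARD3* itself was not among the partners of *NRP1*, and it shared 2 partner fragments with it.

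*NRP2* had the most partner fragments of the 10 genes, 81 in the union, and all of its 108 pairs ran upstream. Its fragment at the gene's 5′ end (chr2:206543284-206549313) had 42, 40 and 42 partners and its fragment inside the gene (chr2:206624678-206641859) 26, 28 and 21. The *NRP2* starts in the fragment inside the gene are of transcripts with a retained intron or without a defined coding sequence. That fragment also holds a start of ENSG00000225216. The 5′ end fragment contacted 25 fragments in all 3 replicates, 8 at 789–813 kb and 3 at 983–990 kb within *PARD3B*, and 14 beyond it, between *PARD3B* and *ICOS*. The 8 within *PARD3B* scored 9.29, 9.86 and 10.4 on average. Beyond *PARD3B*, 4 fragments at 1351–1362 kb scored 18.3, 15.3 and 16.4, 6 at 1415–1428 kb scored 13.0, 11.7 and 12.2, and 4 at 1537–1575 kb scored 9.51, 7.72 and 8.59. The highest run was therefore not the nearest, and it exceeded the run inside *PARD3B* in each replicate.

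**Figure D4:**
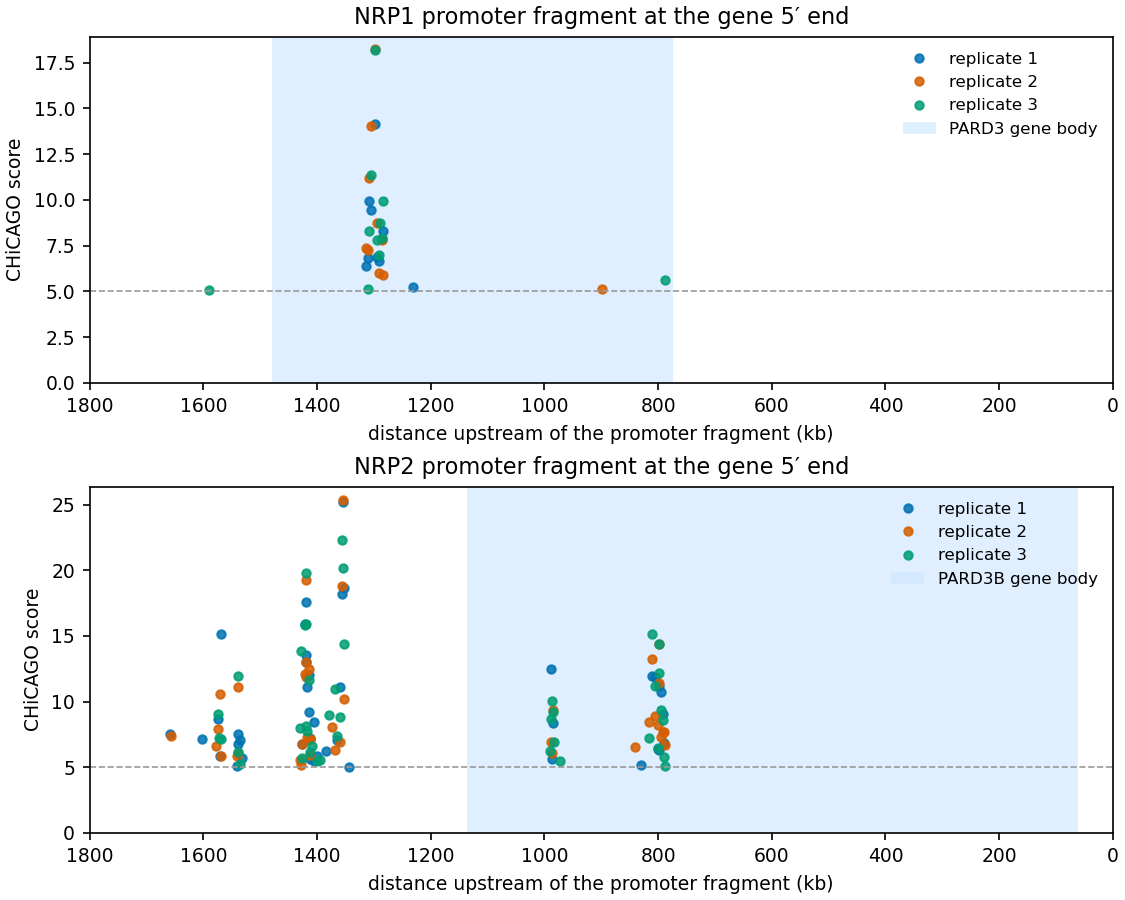
CHiCAGO scores of the partner fragments of the 5′ end fragments of *NRP1* (upper panel) and *NRP2* (lower panel) by distance upstream in kb, 1 point per fragment and replicate; the shaded span is the gene body of *PARD3* or *PARD3B* and the dashed line is the lowest listed score, 5. The *NRP1* scores peak inside *PARD3* near 1298 kb, and the highest *NRP2* scores lie beyond *PARD3B* near 1354 kb.

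The top *NRP2* partner fragment, chr2:205190886-205192833, scored 25.22, 25.34 and 20.16 (23.6 ± 2.96, SD, n = 3), and the adjoining fragment 18.22, 18.78 and 22.31. The fragment inside *NRP2* shared 27 of the 81 partner fragments with the 5′ end fragment, but 5 of its own 49 were called in all 3 replicates (10.2%), against 42.4% of the 59 of the 5′ end fragment. The most similar other promoter fragment was that of the non-coding gene ENSG00000225610, 223 kb away, with 39 shared partner fragments (48.1% of those of *NRP2* and 59.1% of its own 66), of which 1 was called in all 3 replicates for both. A window of the top fragment shows its AP-1 motif TGACTCA, matched on the minus strand at chr2:205192516-205192522 and printed as its reverse complement in capitals (window chr2:205192440-205192599, plus strand, GRCh37).
*NRP2* partner window: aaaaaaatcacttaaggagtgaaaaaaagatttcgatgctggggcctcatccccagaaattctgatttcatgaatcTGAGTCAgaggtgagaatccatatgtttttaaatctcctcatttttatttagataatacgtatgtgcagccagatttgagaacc

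The fragment with the next highest mean score for *NRP2*, chr2:205126349-205126503, is 155 bp long and is printed whole to show the size at which a contact can be resolved; the capitals mark what remains of the HindIII site at each end. It scored 17.56, 19.24 and 15.92 with the 5′ end fragment, and it was the best partner of the fragment inside *NRP2* within the same run.
*NRP2* partner fragment: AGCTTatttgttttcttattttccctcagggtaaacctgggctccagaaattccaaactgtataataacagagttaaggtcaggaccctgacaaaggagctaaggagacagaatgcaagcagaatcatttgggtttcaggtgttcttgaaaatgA

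The *NRP2* promoter had 21 CG pairs in 300 bases, near the median of all promoters. It is printed on the plus strand (chr2:206546464-206546713, GRCh37).
*NRP2* promoter: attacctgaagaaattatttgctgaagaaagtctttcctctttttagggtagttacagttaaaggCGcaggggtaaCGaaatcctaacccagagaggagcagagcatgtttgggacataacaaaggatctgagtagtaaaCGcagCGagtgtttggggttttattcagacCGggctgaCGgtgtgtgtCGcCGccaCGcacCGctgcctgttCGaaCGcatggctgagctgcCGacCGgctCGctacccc

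*PLXND1* (chr3:129274057-129325519, minus strand), the plexin that pairs with neuropilins in endothelium, had 12, 9 and 7 partner fragments. Their median distance, 293 kb, was the shortest of the set. Partner fragments called in 1 replicate alone lay as far as 66932.1 kb away (chr3:196251414-196252362, at 11.31 in replicate 2). Of 16 partner fragments, 3 were called in all 3 replicates, and each overlapped an exon of a protein-coding gene. A fragment of *TMCC1*, chr3:129546861-129548117, 228 kb upstream, scored 6.53, 9.1 and 7.32. Adjoining fragments of *IFT122*, a gene of intraflagellar transport, lay 103–114 kb downstream and scored 7.05, 6.03 and 5.42 on average. The best of these 3 *PLXND1* contacts, with a mean score of 7.65, lay below the best replicated contacts of both Slits and both neuropilins. The *PLXND1* promoter had the most CG pairs of the 10 genes, 52 in 300 bases. The most similar promoter fragment was that of *EFCAB12* and *IFT122*, with 6 shared partner fragments (37.5% of those of *PLXND1*, and 6 of its own 12). Of those 6, 1 was called in all 3 replicates for both.

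Motifs were counted in windows of 1000 bases centred on the partner fragments, on both strands, and none of the motifs contains another. The GATA motif AGATAAG was in 47 of 281 windows (16.7%), against 14.4% of 120856 windows over the series. The AP-1 motif TGACTCA was in 12.8% against 14.7%, the E-box CACGTG in 8.54% against 9.07%, the T-box motif AGGTGTGA in 6.41% against 8.73%, the motif of the MEF2 muscle factors in 0.712% against 0.918% and the CTCF core motif in 0.356% against 0.93%. The shares lay near those of the series for the frequent motifs and rested on 1 and 2 windows for the rare ones, and the motifs printed above are descriptions of single fragments. The printed matches of *SLIT3*, *SEMA3C* and *NRP2* lie outside the central 1000 bases of their fragments and are not in these counts, and no window of the 105 fragments called in all 3 replicates held the CTCF core. Outside the windows, fragments of *SLIT3*, *NRP2* and *PLXND1* called in all 3 replicates did hold it. Matches over whole fragments were not counted for the series. In promoters of 300 bases the motifs were in 2.29% (GATA), 3.97% (AP-1), 8.33% (E-box), 1.09% (T-box), 0.124% (MEF2) and 1.75% (CTCF core) of all promoters, and none of the 10 promoters held any of them.

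The wider pathway was read from 47 further genes, listed by role with earlier results of these data known. A promoter fragment with a call was present for 37 of them, and 27 had a contact in all 3 replicates, compared with 10 and 8 of the 10 genes described. The shares of all genes with a call or with such a contact were not counted. Over all promoter fragments of the series, 51.9% had a contact in all 3 replicates. Of 18 further ligands (*SLIT1* and the other semaphorins), 16 had a call and 11 a contact in all 3 replicates, with a median of 8 partner fragments in the union. *SEMA5A* had the most (31, of which 5 in all 3 replicates) and *SEMA3B* and *SEMA4D* the fewest (1 each). Of 10 further receptors, 8 had a call and 5 a contact in all 3 replicates, also with a median of 8, from *PLXNA4* with 2 to *PLXNA2* with 21. Of 19 cytoplasmic partners that carry the signal to actin and microtubules, 13 had a call and 11 a contact in all 3 replicates, with a median of 13. *ENAH*, an actin regulator, had the most with 35, 35 and 25 in the 3 replicates and 47 in the union, and *RRAS* the fewest with 1. The median over the 10 genes was 19.5. *NRP2* had more partner fragments than any of the 37 others, while *SLIT2*, with 49 in the union, had fewer than *ENAH* in replicate 1 and the same number in replicate 2.

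**Figure D5:**
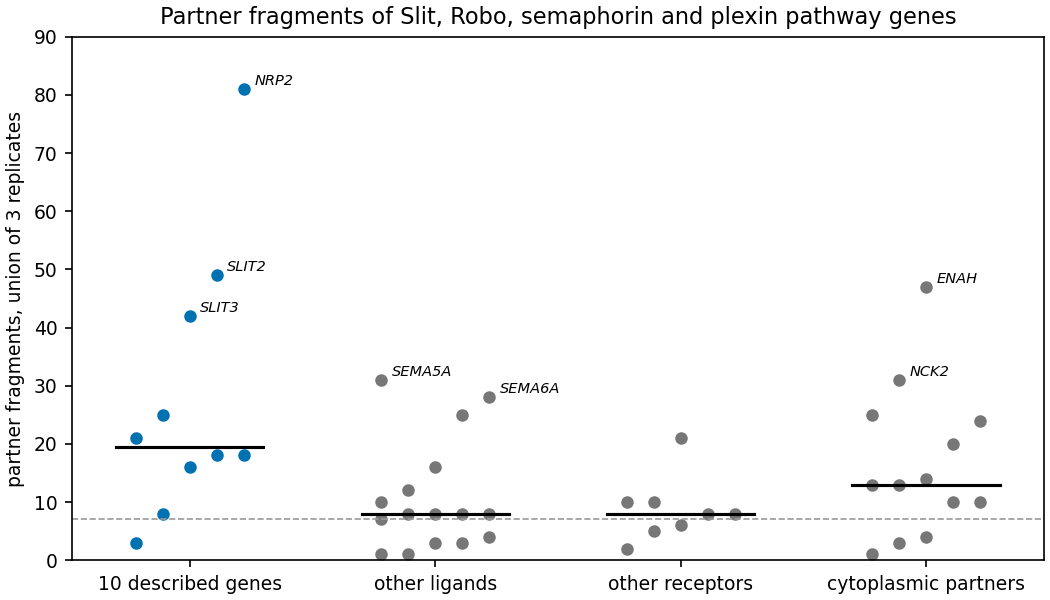
Number of partner fragments in the union of 3 replicates for the 10 genes described (blue) and for 37 further pathway genes with a captured promoter and a call (grey), by role; each point is 1 gene, black lines are medians and the dashed line is the median of all protein-coding genes with a call, 7. The medians are 19.5 for the 10 genes, 8 for other ligands, 8 for other receptors and 13 for cytoplasmic partners.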

How the data were processed

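The authors made PCHi-C libraries from hESC-CMs with a SureSelect capture of HindIII promoter fragments annotated from Ensembl, mapped the read pairs with HiCUP and called contacts with CHiCAGO at its default settings, per replicate and with the replicates merged. Per the labels the genome build was GRCh37. The deposited values are CHiCAGO scores with 2 decimals, at least 5 in every file, for pairs of restriction fragments, without read counts. The score is a weighted significance of the reads over an expected background, so it depends on distance, capture and depth.

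Here each unordered pair of fragments was 1 contact, and replicates were matched on identical fragments. Transcript starts and genes came from GENCODE 44 lifted to GRCh37. Runs joined fragments called in all 3 replicates with gaps of at most 50 kb. Values are given per replicate with mean ± SD, and shares have 95% Wilson intervals. Replicates are labelled biological, and nothing more is given on whether they came from separate differentiations, so their spread may be partly technical. Paralogues were compared by an exact sign-flip permutation test over replicates with Benjamini-Hochberg adjustment over 6 pairs. The code was tested on simulated data.

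The genes named are the 10 members, for each up to 3 partner fragments with the highest mean score among those called in all 3 replicates, partner promoters called in all 3, the promoter fragment with the highest Jaccard index of partners (at least 2 shared), and the 47 pathway genes by role, named where highest or lowest. Other neighbouring genes give positions only. The members, lists, motifs and tests were chosen with earlier results of these data known. Promoter and partner sequences were read from the GRCh37 genome. Each promoter sequence and its CG count is the one at the annotated 5′ end of the gene, and other starts were not read. Alternatives were minimum scores of 7 and 10, each replicate left out, the merged calls, 1 order of the fragments, contacts of at most 1 Mb, coding starts only, matching within 5 kb, coding genes only and, added after seeing the data, leaving out *NRP2*. Python 3 with numpy, scipy, pandas and pysam was used.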

Additional observations from a re-analysis of the deposited data

How the results depend on the processing

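At minimum scores of 7 and 10, the 281 partner fragments became 160 and 71, the median per gene (19.5) 9.5 and 3.5, the share called in all 3 replicates (36.0%) 35.0% and 41.6%, the median distance (1147 kb) 1094 and 1032 kb, and the upstream share (86.4%) 88.5% and 90.9%. At a score of 10 the share of promoter partners (3.37%) was 2.60% and that of partner fragments outside genes (46.6%) 43.7%. With contacts of at most 1 Mb these values, in the same order, were 116 partner fragments, 9.5 per gene, 50.8%, 567 kb, 75.6%, 7.32% and 38.8%. With each replicate left out in turn, the share called in all remaining replicates was 49.8–50.2% and the median distance 1094–1112 kb. The merged calls gave a median distance of 939 kb, 39.7% outside genes, 84.2% upstream and a median top score per gene of 23.5 in place of 15.4. With coding starts alone the share in all 3 replicates was 43.2%, the distance 1034 kb, the share outside genes 40.1% and the upstream share 82.4%. Without *NRP2*, a choice made after seeing the data, they were 40.1%, 1017 kb, 37.0% and 79.5%, with 5.05% promoter partners. Matching within 5 kb gave 67.7% in all 3 replicates, counting coding genes alone gave 68.7% of partner fragments outside genes, and promoter fragments in the first listed position alone gave 1.25% promoter partners. These alternatives were computed for the 10 genes alone and cannot be set against the series shares given above. The difference of *SLIT2* minus *SLIT3* (4.0) turned to -2.0 with the merged calls and -25.7 within 1 Mb, *ROBO1* minus *ROBO2* (7.0) to -1.0 with coding starts, and *SEMA3C* minus *SEMA3D* (1.67) to -5.0 with the merged calls, and the causes of these changes were not tested. At a minimum score of 10, the 6 paralogue differences were 6.67 (*SLIT2* minus *SLIT3*), 0.0 (*ROBO1* minus *ROBO2*), -11.7 (*NRP1* minus *NRP2*), -2.0 (*SEMA3A* minus *SEMA3C*), -1.0 (*SEMA3A* minus *SEMA3D*) and 1.0 (*SEMA3C* minus *SEMA3D*). Over all alternatives, 17 of 54 such differences changed by more than 1.5 times without turning in direction, as did 29 of 90 counts of partner fragments per gene, and 6 of 32 highest scores moved by more than the replicate SD. With 1 group, no groups could be paired by replicate number; genes were compared within replicates. Read counts are not listed, so contacts scoring below 5 cannot be told apart from absent ones, and 3 replicates cannot give an exact p below 0.25.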

Other observations

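*SLIT2* and *SLIT3* each carry a gene of the microRNA miR-218 in an intron. The captured fragment at *MIR218-1*, inside *SLIT2* at chr4:20525472-20532668 (GRCh37) and 273 kb from the *SLIT2* promoter fragment, had 4 partner fragments, of which 2 were also partners of *SLIT2* (4.08% of its 49), and none was called in all 3 replicates for both. The captured fragment at *MIR218-2*, inside *SLIT3* at chr5:168192917-168198731, had 5 partner fragments, all of them also partners of *SLIT3* (11.9% of its 42). Of these, 4 were called in all 3 replicates for *SLIT3*, and 1 for both.

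The merged calls, made by the authors from the 3 replicates together, listed 310 contacts of the 10 genes, of which 64 (20.6%) were in no single replicate, against 25.5% over the series. *PLXND1* had 36 partner fragments in the merged calls, 23 of them (63.9%) in no replicate, and *ROBO2* had none. For *NRP2*, 27 partner fragments of the union were not in the merged calls and 1 of its 55 merged partner fragments was in no replicate.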
